A study of Mus musculus with 47 samples.

Results

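Transcripts of 8 white adipocyte markers were measured in mouse gastrocnemius muscle, a mostly fast calf muscle, as a measure of fat tissue carried in the muscle sample. The markers were Adipoq, Lep, Retn, Cfd, Plin1, Cidec, Fabp4 and Pparg. They were taken by gene symbol from the deposited count table, in which they are 8 of 20796 genes. All 8 were among the 17159 genes abundant enough to be tested. White adipocytes store triglyceride in a single large droplet coated by proteins such as perilipin, and release hormones called adipokines into the blood. In skeletal muscle, white adipocytes lie between the fibre bundles and along vessels and fascia, so a dissected muscle carries some of their RNA beside that of the fibres. In a bulk sample such as these, fewer adipocytes and less of a transcript per adipocyte cannot be told apart.

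The mice were wild type (WT in the labels), with no treatment other than diet, and belonged to 3 inbred strains. CAST/EiJ derives from wild mice, C57BL/6J is a widely used laboratory strain, and NZO/HlLtJ is an obese strain prone to type 2 diabetes. Females and males of each strain received either a control diet (10% fat + fiber) or a diet rich in fat and sugar (44% fat + fiber) from 6 weeks of age, and the muscle was collected at 15 weeks. These 12 groups of strain, sex and diet held 4 libraries each, except CAST/EiJ males on 10% fat with 3, which gave 47 libraries. No label says that each library of a group is a separate animal. The p-values therefore rest on the spread among these samples alone, part of which may be technical. Total expected counts (read counts estimated per gene) ranged from 26041719 to 84794107 per library, with a median of 40794895. The sample titles carry numbers that fall into 3 separate stretches, called identifier runs here, which the labels do not describe as batches. The run was a term in the main fit, and NZO/HlLtJ has both sexes and both diets in the first run only.

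Markers of muscle fibres dominated every library. The actin gene Acta1 ranged from 21783 to 34183 CPM, which are counts scaled to a common library total, over the 47 libraries and the fast myosin gene Myh4 from 52563 to 91329 CPM. The 8 white adipocyte markers together took 199 to 1394 CPM. Every marker was above 0 in every library, so none of the 12 groups was free of these transcripts.

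The upstream sequences of 3 genes are given here because the results below turn on the secreted products Lep, Cfd and Adipoq, whose levels did not move in parallel across strains. Each is the 250 bases before the annotated transcript start in RefSeq on GRCm38.p6, 5′ to 3′, at chr6:29059971-29060220 (+ strand) for Lep, chr10:79890603-79890852 (+ strand) for Cfd and chr16:23146286-23146535 (+ strand) for Adipoq. Capitals mark matches to the motifs searched on both strands.
Lep: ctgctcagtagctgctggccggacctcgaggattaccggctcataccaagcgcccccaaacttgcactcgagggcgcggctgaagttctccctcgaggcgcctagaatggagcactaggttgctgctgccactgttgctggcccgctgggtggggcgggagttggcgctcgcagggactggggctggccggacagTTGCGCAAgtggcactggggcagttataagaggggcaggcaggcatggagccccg
Cfd: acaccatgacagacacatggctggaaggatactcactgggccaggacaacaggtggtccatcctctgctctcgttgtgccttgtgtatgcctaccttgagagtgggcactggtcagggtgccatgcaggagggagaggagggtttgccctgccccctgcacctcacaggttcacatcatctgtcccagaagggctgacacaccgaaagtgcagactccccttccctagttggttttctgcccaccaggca
Adipoq: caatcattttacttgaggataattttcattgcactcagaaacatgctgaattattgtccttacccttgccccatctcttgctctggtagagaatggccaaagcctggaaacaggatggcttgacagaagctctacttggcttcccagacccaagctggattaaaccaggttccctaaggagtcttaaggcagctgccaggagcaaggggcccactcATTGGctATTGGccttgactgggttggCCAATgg
The capitals in Lep, 55 to 48 bases before the start, are TTGCGCAA, the palindrome recognised by C/EBP factors, which 0.166% of 32536 promoter windows of the same length hold. The capitals in Adipoq are 3 matches to CCAAT or its reverse ATTGG, which 33.8% of windows hold. No match to these letters, to the nuclear receptor half-site AGGTCA (14% of windows), to the repeat AGGTCANAGGTCA (0.0338%) or to TATAAA (12.3%) was found in the Cfd window. The sequences are those of the reference genome, and alleles of the other strains were not used here.

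By level per length, Lep took a higher place among the markers in NZO/HlLtJ than in the other strains, while Fabp4 and Cfd were first and second in each strain. Dividing CPM by the length of the principal transcript in kilobases, and averaging the group means of a strain, Fabp4 was the highest marker in each strain, at 263, 562 and 329.6 CPM per kilobase in C57BL/6J, CAST/EiJ and NZO/HlLtJ. Cfd came next, at 137, 246 and 51.4. The gap between Cfd and Adipoq (34.6, 57.1 and 36.8) was narrowest in NZO/HlLtJ. Lep stood at 4.15 in C57BL/6J and 3.96 in CAST/EiJ, beside Pparg as the 2 lowest markers (3.52 and 4.74). In NZO/HlLtJ, Lep reached 17.5 CPM per kilobase, beside Plin1 at 16.3 and above Retn at 6.37.

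**Figure D1:**
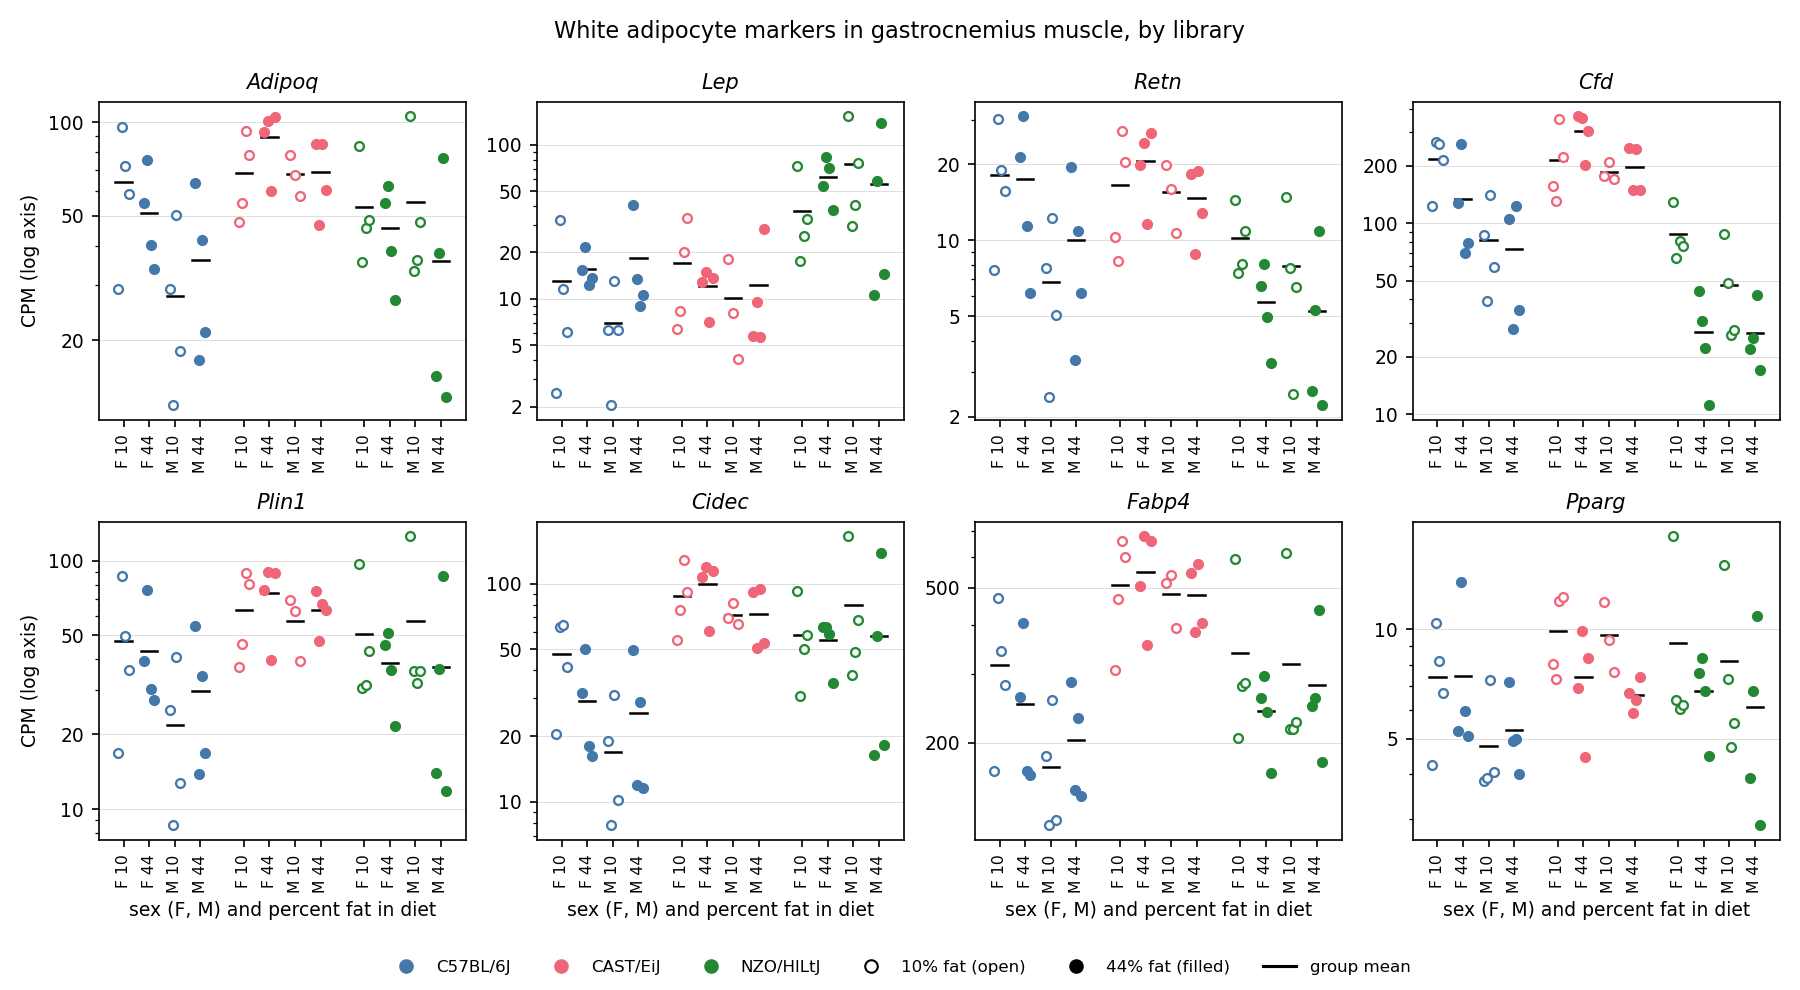
Each panel plots 1 marker in CPM on a log axis, with 1 point per library, arranged by strain (colour), sex (F, M) and percent fat in the diet, and a black line at each group mean. By the median of a strain, Lep is highest and Cfd lowest in NZO/HlLtJ, with overlap of the strains, and the libraries of most groups spread over several-fold.

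Libraries of the same group differed widely, and the 8 markers tended to move together in doing so, Lep least closely. Within a group, the highest library exceeded the lowest by 1.36 to 5.82 times for Adipoq and by 1.75 to 13.1 times for Lep, depending on the group. After the group means were removed, log2 CPM was correlated between pairs of markers over the 47 libraries. The 28 correlations ranged from 0.518 to 0.976, with a median of 0.855. Within strains the range was 0.591 to 0.987 in C57BL/6J, 0.171 to 0.955 in CAST/EiJ and 0.621 to 0.981 in NZO/HlLtJ. In CAST/EiJ, Lep gave from 0.171 with Cidec to 0.745 with Pparg. The points share a library and its scaling, so these values describe the libraries and carry no test. Over all strains, the range before removal of the group means was −0.346 to 0.97. Differences between groups made up 80.2% of the variance of log2 CPM for Cfd but 29.4% for Pparg and 38.9% for Plin1. When the 12 groups were ordered by mean, the 11 gaps between neighbours were within the larger SD of the pair for each marker except 1 gap for Cfd.

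Ordered by group mean, Adipoq in CPM (mean ± SD, n = 4, or 3 for CAST/EiJ males on 10% fat) was 89.3 ± 19.97 in CAST/EiJ females on 44%, 69.3 ± 18.9 in CAST/EiJ males on 44%, 68.6 ± 21.02 in CAST/EiJ females on 10%, 68.1 ± 10.3 in CAST/EiJ males on 10%, 64.2 ± 28.1 in C57BL/6J females on 10%, 55.3 ± 33.2 in NZO/HlLtJ males on 10%, 53.4 ± 20.9 in NZO/HlLtJ females on 10%, 51.2 ± 18.6 in C57BL/6J females on 44%, 45.6 ± 16.0 in NZO/HlLtJ females on 44%, 36.0 ± 21.4 in C57BL/6J males on 44%, 35.8 ± 29.4 in NZO/HlLtJ males on 44%, 27.6 ± 16.7 in C57BL/6J males on 10%. CAST/EiJ groups took the 4 highest places, and both C57BL/6J male groups were among the 3 lowest. The order for Lep was 74.5 ± 55.6 in NZO/HlLtJ males on 10%, 61.4 ± 19.8 in NZO/HlLtJ females on 44%, 55.2 ± 59.0 in NZO/HlLtJ males on 44%, 37.3 ± 24.6 in NZO/HlLtJ females on 10%, 18.4 ± 14.9 in C57BL/6J males on 44%, 17.1 ± 12.6 in CAST/EiJ females on 10%, 15.7 ± 4.1 in C57BL/6J females on 44%, 13.1 ± 13.3 in C57BL/6J females on 10%, 12.3 ± 10.8 in CAST/EiJ males on 44%, 12.1 ± 3.45 in CAST/EiJ females on 44%, 10.1 ± 7.26 in CAST/EiJ males on 10%, 6.93 ± 4.6 in C57BL/6J males on 10%. The 4 NZO/HlLtJ groups led it, with SDs close to their means in the males. For Cfd the order was 307 ± 75.3 in CAST/EiJ females on 44%, 217 ± 66.6 in C57BL/6J females on 10%, 215 ± 98.7 in CAST/EiJ females on 10%, 198 ± 55.8 in CAST/EiJ males on 44%, 186 ± 20.6 in CAST/EiJ males on 10%, 134 ± 88.4 in C57BL/6J females on 44%, 88.3 ± 28.5 in NZO/HlLtJ females on 10%, 81.6 ± 44.4 in C57BL/6J males on 10%, 73.0 ± 48.6 in C57BL/6J males on 44%, 47.7 ± 28.9 in NZO/HlLtJ males on 10%, 27.1 ± 14.0 in NZO/HlLtJ females on 44%, 26.6 ± 11.0 in NZO/HlLtJ males on 44%. It ran from CAST/EiJ to NZO/HlLtJ on 44% fat, with the C57BL/6J females on 10% fat among the CAST/EiJ groups. The ratio of the highest to the lowest group mean was 11.5 for Cfd, 10.8 for Lep, 5.91 for Cidec, 3.94 for Retn, 3.38 for Plin1, 3.23 for Adipoq, 3.17 for Fabp4 and 2.08 for Pparg.

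Between strains, CAST/EiJ muscle held more of several markers than C57BL/6J, while NZO/HlLtJ muscle held more Lep and less Cfd than both others. On 10% fat, 3 of the 8 markers were higher and 0 lower in CAST/EiJ than in C57BL/6J, where 49.7% of all tested genes were called, 24% higher and 25.6% lower. On 44% fat, 5 were higher and 0 lower (51.5% of all tested genes were called, 24.6% higher and 26.9% lower). Against C57BL/6J, NZO/HlLtJ had 2 markers higher and 1 lower on 10% fat (25.8% of genes called, 13.4% higher and 12.4% lower) and 2 higher and 2 lower on 44% fat (35.2% of genes called, 16.3% higher and 18.9% lower). Against CAST/EiJ, NZO/HlLtJ had 1 higher and 2 lower on 10% fat (50% of genes called, 26.1% higher and 23.8% lower), and 1 higher and 4 lower on 44% fat (55.4% of genes called, 27.2% higher and 28.2% lower). A call is an adjusted p under 0.05 in edgeR's quasi-likelihood test over all genes, and fold changes are on the log2 scale with their standard error (SE). The shares of markers called, 3 to 5 of 8, lie on both sides of these backgrounds, and the text below gives direction and size gene by gene. The pairs of comparisons on 1 diet share a strain's libraries. Whether strain alleles changed how reads were assigned was not tested.

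**Figure D2:**
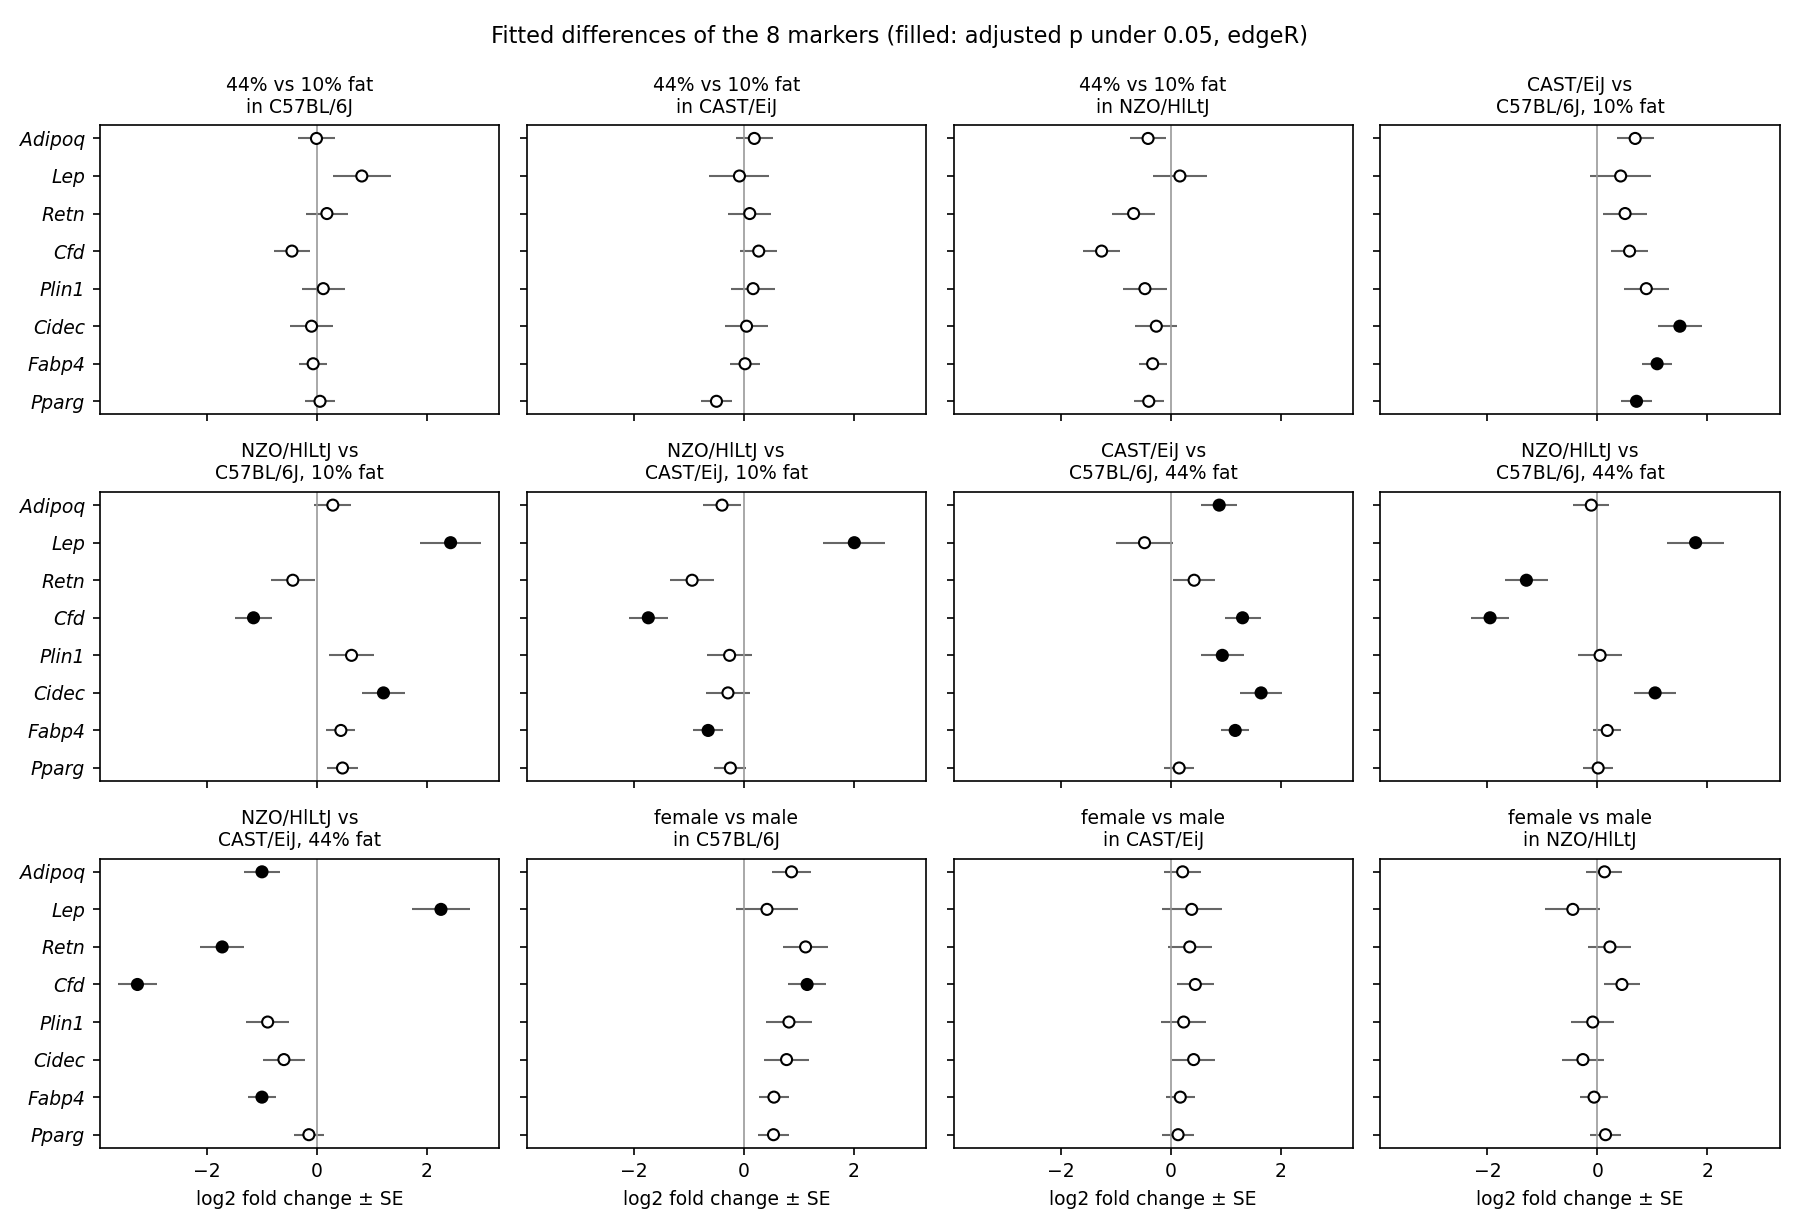
Log2 fold change of each marker with its SE, from the fit over all 47 libraries, in the 12 comparisons of diet, strain and sex; filled points passed an adjusted p of 0.05. Lep lies to the right and Cfd to the left in the 4 comparisons of NZO/HlLtJ with another strain, while the 3 diet panels hold no filled point.

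Adipoq (ENSMUSG00000022878, chromosome 16, 23146536 to 23158028 on GRCm38) encodes adiponectin, an adipokine made almost only by adipocytes, whose receptors are abundant in muscle. In C57BL/6J females, Adipoq read 29.2, 96.5, 72.2 and 58.7 CPM in the 4 libraries on 10% fat and 55.1, 75.7, 40.3 and 33.8 CPM on 44% fat. C57BL/6J males gave 29.2, 12.4, 50.4 and 18.5 CPM on 10% fat and 63.7, 17.3, 41.9 and 21.2 CPM on 44% fat. Males of this strain reached the lowest values of all groups on 10% fat, with a mean of 27.6 ± 16.7 CPM (SD, n = 4). Females of CAST/EiJ held 47.8, 54.9, 93.3 and 78.3 CPM of Adipoq on the control diet and 92.8, 101, 60.1 and 103 CPM on the rich diet. For CAST/EiJ males the values were 78.6, 67.7 and 57.9 CPM in the 3 libraries on 10% fat and 85.1, 46.7, 84.8 and 60.8 CPM on 44% fat. No CAST/EiJ library fell below 46.7 CPM. Adipoq in NZO/HlLtJ females stood at 83.6, 35.6, 45.7 and 48.6 CPM on 10% fat and 54.9, 62.3, 38.6 and 26.8 CPM on 44% fat. The NZO/HlLtJ males had 104, 33.3, 36.1 and 47.8 CPM on 10% fat and 15.3, 38.1, 76.5 and 13.1 CPM on 44% fat. In both NZO/HlLtJ male groups a single library stood far above the rest, replicate 1 on 10% fat and replicate 3 on 44% fat. On 44% fat, Adipoq was higher in CAST/EiJ than in C57BL/6J (79.3 against 43.6 CPM, log2 fold change 0.88 ± 0.328, adjusted p = 0.0229), in 8 of 8 CAST/EiJ libraries against the C57BL/6J mean of the same sex. It was also lower in NZO/HlLtJ than in CAST/EiJ on that diet (40.7 against 79.3 CPM, −0.996 ± 0.331, adjusted p = 0.0105, 7 of 8 libraries). On 10% fat the difference between CAST/EiJ and C57BL/6J did not pass (0.69 ± 0.339, adjusted p = 0.092), and the groups overlapped in every pair of strains.

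Lep (ENSMUSG00000059201, chromosome 6, 29060220 to 29073877) encodes leptin, the adipokine that reports fat stores to the brain and whose level rises with adipocyte size. In C57BL/6J females, Lep read 2.46, 32.3, 11.6 and 6.09 CPM in the 4 libraries on 10% fat and 15.3, 21.6, 12.4 and 13.6 CPM on 44% fat. C57BL/6J males gave 6.23, 2.04, 13.1 and 6.29 CPM on 10% fat and 40.6, 13.4, 8.98 and 10.6 CPM on 44% fat. Females of CAST/EiJ held 6.36, 8.3, 20.2 and 33.6 CPM of Lep on the control diet and 12.8, 14.8, 7.07 and 13.6 CPM on the rich diet. In each of these groups except the C57BL/6J females on 44% fat and the CAST/EiJ females on 44% fat, libraries differed several-fold, with replicate 2 of the C57BL/6J females on 10% fat and replicate 1 of the males on 44% fat far above the others. For CAST/EiJ males the values were 18.2, 8.12 and 4.07 CPM in the 3 libraries on 10% fat and 5.73, 9.47, 5.65 and 28.2 CPM on 44% fat. Lep in NZO/HlLtJ females stood at 73.0, 17.7, 25.5 and 33.1 CPM on 10% fat and 54.2, 83.5, 70.2 and 37.8 CPM on 44% fat. The NZO/HlLtJ males had 153, 29.6, 40.3 and 75.5 CPM on 10% fat and 10.6, 58.2, 138 and 14.6 CPM on 44% fat. The NZO/HlLtJ libraries ranged from 10.6 to 153 CPM, with a median of 47.3, against medians of 11.98 in C57BL/6J and 9.47 in CAST/EiJ.

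On 10% fat Lep was 5.4-fold higher in NZO/HlLtJ than in C57BL/6J (55.9 against 10.01 CPM, log2 fold change 2.43 ± 0.551, adjusted p = 0.000801), with 8 of 8 libraries above the C57BL/6J mean of the same sex. It was 4.03-fold higher than in CAST/EiJ on that diet (2.01 ± 0.562, adjusted p = 0.00299, 8 of 8 libraries). On 44% fat the folds were 3.44 against C57BL/6J (1.78 ± 0.513, adjusted p = 0.00633, 6 of 8 libraries) and 4.78 against CAST/EiJ (2.26 ± 0.529, adjusted p = 0.000442, 7 of 8 libraries). The ranges of the strains overlapped in all 4 comparisons. CAST/EiJ and C57BL/6J did not differ beyond the test's threshold on 10% fat (0.42 ± 0.554, adjusted p = 0.562) or on 44% fat (−0.47 ± 0.518, adjusted p = 0.468). Without NZO/HlLtJ male replicate 3 on 44% fat, the difference from C57BL/6J on that diet was 1.16 (adjusted p = 0.0694).

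Cfd (ENSMUSG00000061780, chromosome 10, 79890853 to 79892656) encodes complement factor D, or adipsin, a serine protease of the alternative complement pathway secreted by adipocytes and known to fall in obese mice. In C57BL/6J females, Cfd read 123, 267, 261 and 215 CPM in the 4 libraries on 10% fat and 127, 261, 69.8 and 78.6 CPM on 44% fat. C57BL/6J males gave 86.8, 39.3, 141 and 58.9 CPM on 10% fat and 105, 28.1, 124 and 34.9 CPM on 44% fat. C57BL/6J females exceeded males on each diet by their means, although the groups overlapped. Females of CAST/EiJ held 156, 132, 352 and 222 CPM of Cfd on the control diet and 364, 358, 201 and 304 CPM on the rich diet. For CAST/EiJ males the values were 177, 209.7 and 172 CPM in the 3 libraries on 10% fat and 247, 150, 245 and 149 CPM on 44% fat. No CAST/EiJ library fell below 132 CPM. Cfd in NZO/HlLtJ females stood at 130.1, 65.9, 81.1 and 76.3 CPM on 10% fat and 44.2, 30.8, 22.2 and 11.1 CPM on 44% fat. The NZO/HlLtJ males had 88.3, 48.6, 26.1 and 27.7 CPM on 10% fat and 22.04, 25.1, 42.3 and 17.0 CPM on 44% fat. All 8 NZO/HlLtJ libraries on 44% fat lay at or below 44.2 CPM. The 4 females on this diet lay below the 4 on 10% fat, while the males of the diets overlapped. How many of all genes separate the female diets in this way was not computed. Replicates 3 and 4 of these females came from the second identifier run on 10% fat and from the third on 44% fat.

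Cfd was lower in NZO/HlLtJ than in both other strains on each diet. Against CAST/EiJ it was 3.33-fold lower on 10% fat (68.0 against 201 CPM, log2 fold change −1.73 ± 0.35, adjusted p = 7.73e-05) and 9.59-fold lower on 44% fat (26.8 against 252 CPM, −3.26 ± 0.356, adjusted p = 6.31e-10). The libraries of the strains did not overlap on either diet, as was so for 18.4% of all tested genes on 10% fat and 20% on 44% fat. Against C57BL/6J the differences were −1.15 ± 0.339, adjusted p = 0.00977 on 10% fat (7 of 8 libraries lower) and −1.95 ± 0.341, adjusted p = 2.16e-05 on 44% fat (8 of 8 libraries lower). CAST/EiJ exceeded C57BL/6J on 44% fat (252 against 104 CPM, 1.31 ± 0.328, adjusted p = 0.000973), and on 10% fat the difference did not pass (0.58 ± 0.334, adjusted p = 0.15).

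Retn (ENSMUSG00000012705, chromosome 8, 3655770 to 3660110) encodes resistin, an adipokine of mouse adipocytes that opposes insulin action. The lowest, median and highest of its libraries were 2.4, 9.999 and 30.4 CPM in C57BL/6J on 10% fat and 3.35, 11.2 and 31.0 CPM on 44% fat. CAST/EiJ gave 8.32, 16.0 and 27.0 CPM, then 8.81, 18.6 and 26.5 CPM, and NZO/HlLtJ 2.46, 7.91 and 14.8 CPM, then 2.22, 5.13 and 10.9 CPM. NZO/HlLtJ held the lowest median on each diet, with overlap of the ranges. On 44% fat Retn was lower in NZO/HlLtJ than in C57BL/6J (−1.29 ± 0.391, adjusted p = 0.00924, 7 of 8 libraries) and than in CAST/EiJ (−1.72 ± 0.395, adjusted p = 0.000343, 8 of 8 libraries). On 10% fat neither difference passed.

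Of the lipid droplet proteins, Plin1 was called in 1 comparison of strains and Cidec in 4. Plin1 (ENSMUSG00000030546, chromosome 7, 79720218 to 79732903) encodes perilipin 1, which coats the droplet and controls access of lipases. On 10% fat its lowest, median and highest libraries were 8.62, 30.8 and 86.5 CPM in C57BL/6J, 37.2, 62.4 and 88.9 CPM in CAST/EiJ and 30.8, 36.0 and 125 CPM in NZO/HlLtJ, and on 44% fat 13.8, 32.4 and 75.9 CPM, 40.0, 71.2 and 90.3 CPM and 11.8, 36.4 and 86.3 CPM in the same order. It was called only between CAST/EiJ and C57BL/6J on 44% fat (0.94 ± 0.392, adjusted p = 0.0429, 7 of 8 libraries higher). Cidec (ENSMUSG00000030278, chromosome 6, 113424634 to 113435760) encodes a protein that lets droplets exchange lipid and fuse into larger ones. Its lowest, median and highest libraries on 10% fat were 7.82, 25.6 and 64.6 CPM in C57BL/6J, 55.2, 75.9 and 129 CPM in CAST/EiJ and 30.7, 54.3 and 165 CPM in NZO/HlLtJ, and on 44% fat 11.5, 23.3 and 49.9 CPM, 50.6, 92.7 and 119 CPM and 16.4, 58.1 and 139 CPM. C57BL/6J stood lowest on both diets.

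Cidec was higher in CAST/EiJ than in C57BL/6J on 10% fat (2.82-fold, 1.498 ± 0.399, adjusted p = 0.00188, 7 of 7 libraries) and on 44% fat (3.13-fold, 1.65 ± 0.389, adjusted p = 0.000517, 8 of 8 libraries). On 44% fat the libraries of these strains did not overlap, as was so for 18.6% of all tested genes. NZO/HlLtJ also exceeded C57BL/6J on 10% fat (1.21 ± 0.397, adjusted p = 0.0205, 7 of 8 libraries) and on 44% fat (1.05 ± 0.385, adjusted p = 0.0313, 6 of 8 libraries). When only the libraries of the pair were fitted, these 2 calls were lost (adjusted p = 0.055 and 0.0632). NZO/HlLtJ and CAST/EiJ did not differ beyond the threshold on either diet.

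Fabp4 (ENSMUSG00000062515, chromosome 3, 10204088 to 10208576) encodes a fatty acid carrier of adipocytes that capillary endothelium also makes. On 10% fat its lowest, median and highest libraries were 123, 221 and 471 CPM in C57BL/6J, 308, 512 and 659.9 CPM in CAST/EiJ and 205, 253 and 614 CPM in NZO/HlLtJ, and on 44% fat 146, 200.4 and 406 CPM, 356, 525.7 and 677 CPM and 167, 254 and 438 CPM. It was higher in CAST/EiJ than in C57BL/6J on 10% fat (1.08 ± 0.266, adjusted p = 0.000822, 6 of 7 libraries) and on 44% fat (1.18 ± 0.259, adjusted p = 0.000223, 8 of 8 libraries). NZO/HlLtJ was lower than CAST/EiJ on 44% fat (−0.997 ± 0.261, adjusted p = 0.00142, 8 of 8 libraries) and, closer to the threshold, on 10% fat (−0.65 ± 0.272, adjusted p = 0.0464, 6 of 8 libraries). The last call was lost without the identifier run in the fit (adjusted p = 0.0588) and in 16 of 31 fits that left out 1 library. The summed CPM of 5 endothelial markers (Pecam1, Cdh5, Kdr, Tek and Emcn) ranged from 124 to 188 in CAST/EiJ, 215 to 272 in C57BL/6J and 204 to 244 in NZO/HlLtJ. All 5 were lower in CAST/EiJ than in C57BL/6J on each diet, as were 25.6% of all genes on 10% fat and 26.9% on 44% fat. The part of endothelium in the strain differences of Fabp4 was not tested.

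Pparg (ENSMUSG00000000440, chromosome 6, 115360951 to 115490399) encodes the nuclear receptor that drives adipocyte differentiation. Its lowest, median and highest libraries were 3.84, 5.46 and 10.4 CPM in C57BL/6J, 7.31, 9.36 and 12.3 CPM in CAST/EiJ and 4.75, 6.3 and 18.1 CPM in NZO/HlLtJ on 10% fat, and 3.99, 5.17 and 13.5 CPM, 4.46, 6.78 and 9.9 CPM and 2.89, 6.75 and 10.9 CPM on 44% fat. The marker was called once, higher in CAST/EiJ than in C57BL/6J on 10% fat (0.71 ± 0.284, adjusted p = 0.0361, 6 of 7 libraries). That call was lost in 8 of 31 fits that left out 1 library.

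No marker was called between the diets in any strain. On 44% against 10% fat, 0 of 8 markers were called by edgeR in C57BL/6J, CAST/EiJ or NZO/HlLtJ, where 0%, 0.134% and 0.408% of all tested genes were called. At an unadjusted p under 0.05 the markers numbered 0, 0 and 1 in the same order. DESeq2 called 0, 0 and 1 markers, and limma-voom 0, 0 and 0. The marker nearest to a call was Cfd in NZO/HlLtJ, at 26.8 against 68.0 CPM on 44% against 10% fat (−1.25 ± 0.332, adjusted p = 0.0737), with 8 of 8 libraries below the 10% fat mean of their sex. DESeq2 gave this difference an adjusted p of 0.0308. Within the first identifier run, the only stretch of sample numbers that held both diets in both NZO/HlLtJ sexes, Cfd differed by −1.40 in mean log2 CPM, against −1.28 over all runs.

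For Adipoq the diet difference was −0.0057 ± 0.328 in C57BL/6J (95% interval −0.67 to 0.66), 0.19 ± 0.341 in CAST/EiJ (−0.498 to 0.88) and −0.41 ± 0.327 in NZO/HlLtJ (−1.07 to 0.25). The intervals are unadjusted and give the range of differences compatible with these libraries, not a limit of detection. The median over the 8 markers was 0.026, 0.081 and −0.40, against 0.0065, 2.9e−05 and −0.017 over all genes. The diet effect was tested for a difference between strains with an interaction term, and 0 of 8 markers passed in edgeR (0.0117% of genes), with 1 at an unadjusted p under 0.05. That marker was Cfd (adjusted p = 0.626). DESeq2 called 0 and limma-voom 0.

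Between the sexes, Cfd was the marker that edgeR called in C57BL/6J. Females of this strain had 175 CPM against 77.3 CPM in males (log2 fold change 1.15 ± 0.348, adjusted p = 0.0191), and 7 of 8 female libraries exceeded the male mean on the same diet. It was 1 of 8 markers called there, where 15.2% of all genes were called, 6.5% higher in females and 8.68% lower. All 8 markers had a positive value in this comparison, with a median of 0.80 against 0.038 over all genes, and 4 had an unadjusted p under 0.05. DESeq2 called 2 markers and limma-voom 3. For example, Adipoq gave 0.87 ± 0.348, adjusted p = 0.0884 with edgeR and an adjusted p of 0.0416 with limma-voom. The 3 identifier runs held 4, 6 and 6 libraries of this strain, with a single library in some groups of each run. Within them the mean log2 CPM of Cfd differed by 0.39, 2.51 and 0.75 between females and males, each higher in females. Retn also kept this direction in each run, and the other 6 did not. In the first run, 6 of 8 were lower in females, from −1.37 for Lep to −0.10 for Adipoq, and in the third run Lep was also lower (−0.052). The call of Cfd was lost when only C57BL/6J libraries were fitted (adjusted p = 0.101) and when female replicate 2 on 44% fat, male replicate 2 on 44% fat or male replicate 2 on 10% fat was left out. Of 5 markers of Schwann cells, the glia of the nerve that enters the muscle, 5 were higher in C57BL/6J females than males (median log2 fold change 0.73, summed CPM of 109 to 219 in females and 72.9 to 144 in males), and the part of tissue carried with the nerve was not tested. Of 5 slow fibre markers (Myh7, Tnnt1, Tnni1, Tnnc1 and Myl3), 5 were higher in females too (median 1.02, summed CPM of 835 to 2259.7 in females and 413 to 679 in males), and their part in the result was not tested.

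In CAST/EiJ and NZO/HlLtJ, edgeR called 0 of 8 markers between the sexes (4.27% and 11.8% of genes), and 0 and 0 had an unadjusted p under 0.05. DESeq2 called 0 and 0, and limma-voom 0 and 0. Cfd differed there by 0.45 ± 0.339, adjusted p = 0.59 and 0.44 ± 0.328, adjusted p = 0.417. The test of whether the sex difference depends on strain called 0 of 8 markers (3.28% of genes; 0 at an unadjusted p under 0.05, 0 by DESeq2 and 0 by limma-voom), so the sex difference of Cfd is not shown to be particular to C57BL/6J.

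Since the markers tended to rise and fall together from library to library, each was also divided by the Adipoq count of its own library. This removes the scaling of the library. The measure was chosen after the data were seen. Lep followed Adipoq less closely in CAST/EiJ (r = 0.387 with group means removed) than in C57BL/6J (0.81) or NZO/HlLtJ (0.954). The 7 ratios were compared in the 12 comparisons by exact two-sided permutation of libraries within sex (or within diet, for the sex comparisons), and p-values were adjusted over the 84 tests, of which 24 passed. Unlike the main fit, the permutations took no account of the identifier run. With 4 against 4 libraries in both strata the smallest p possible is 0.000408. A change of a ratio can come from either gene. Overlap of ratios is described only library by library, since its frequency over other genes was not computed.

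Lep per Adipoq was higher in NZO/HlLtJ than in the other strains on both diets. In C57BL/6J females the ratio of counts was 0.084, 0.334, 0.161 and 0.104 on 10% fat and 0.278, 0.285, 0.307 and 0.402 on 44% fat. Male C57BL/6J libraries gave 0.214, 0.165, 0.261 and 0.34, then 0.637, 0.773, 0.214 and 0.5. The ratio on 44% fat exceeded the 10% fat mean of its sex in 7 of 8 libraries, and replicate 2 of the females on 10% fat and replicate 3 of the males on 44% fat fell among the other diet's values. CAST/EiJ females had 0.133, 0.151, 0.217 and 0.429 on 10% fat and 0.139, 0.147, 0.118 and 0.132 on 44% fat, and males 0.231, 0.12 and 0.0702, then 0.0673, 0.203, 0.0667 and 0.465. NZO/HlLtJ females had 0.873, 0.497, 0.558 and 0.682 and 0.988, 1.34, 1.82 and 1.41, without overlap of the diets. The males of this strain had 1.46, 0.89, 1.12 and 1.58 and 0.69, 1.53, 1.8 and 1.11, which overlapped.

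The geometric mean of Lep per Adipoq in C57BL/6J was 0.388 against 0.186 on 44% against 10% fat (log2 difference 1.06, exact permutation p = 0.00735, adjusted p = 0.0268). The difference was 1.65, 1.29 and 1.05 within the 3 identifier runs, and leaving out 1 library raised the adjusted p to at most 0.0557. In NZO/HlLtJ it was 1.28 against 0.886 (0.53, exact permutation p = 0.0669, adjusted p = 0.156) and in CAST/EiJ 0.138 against 0.161 (−0.22, exact permutation p = 0.666, adjusted p = 0.777), neither of which passed. Whether the diet difference of the ratio depends on strain was not tested. Between strains, the NZO/HlLtJ ratio exceeded that of C57BL/6J on 10% fat (0.886 against 0.186, 2.25, exact permutation p = 0.000408, adjusted p = 0.00286) and on 44% fat (1.28 against 0.388, 1.72, exact permutation p = 0.000816, adjusted p = 0.00457). In the first run alone these differences were 2.69 and 1.37. It also exceeded CAST/EiJ on both diets (2.46 and 3.21, exact permutation, adjusted p = 0.00286 for each). On 44% fat the CAST/EiJ ratio was below that of C57BL/6J (−1.49, exact permutation p = 0.00367, adjusted p = 0.0162), while the difference on 10% fat did not pass (−0.21, exact permutation p = 0.623, adjusted p = 0.747).

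**Figure D3:**
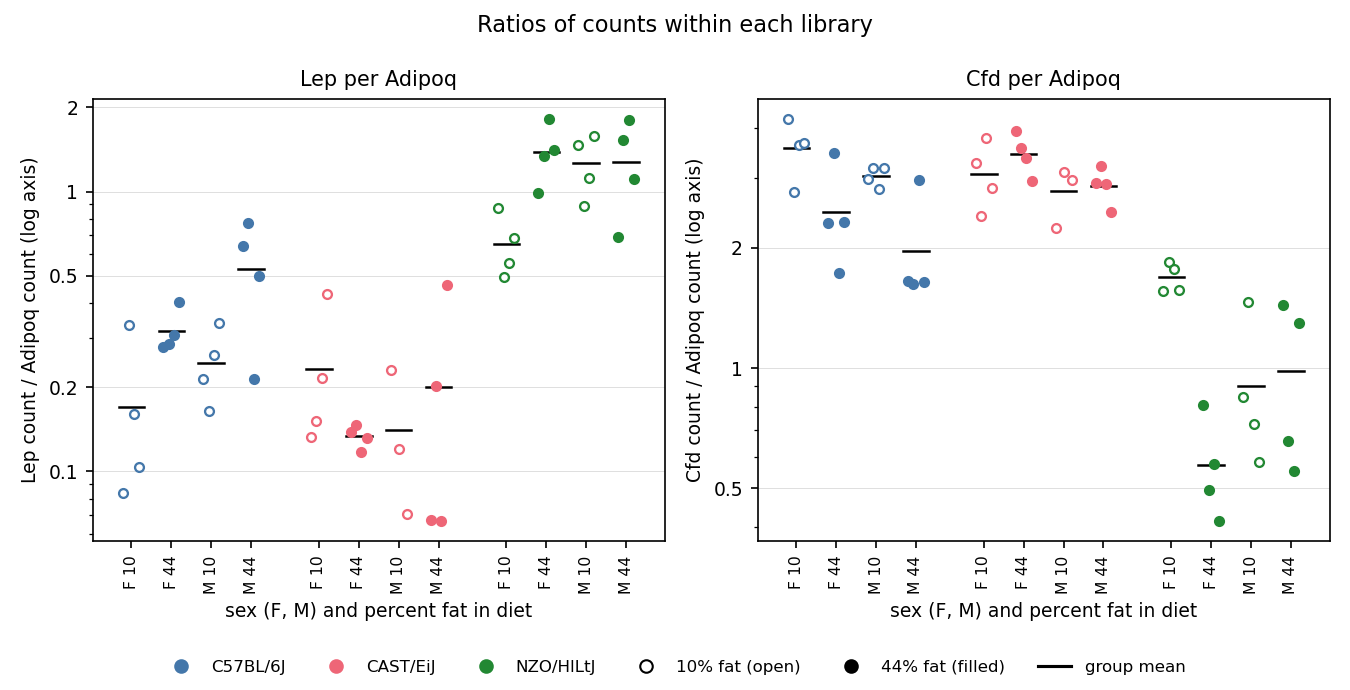
Ratio of the Lep count (left) and of the Cfd count (right) to the Adipoq count of the same library on a log axis, 1 point per library, by strain (colour), sex and percent fat, with lines at group means. The group means of NZO/HlLtJ lie highest for Lep and lowest for Cfd, while some of its libraries overlap those of C57BL/6J. The mean of Cfd per Adipoq in C57BL/6J is lower on 44% fat in both sexes.

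Cfd per Adipoq went the other way. In C57BL/6J females it was 4.21, 2.77, 3.62 and 3.66 on 10% fat and 2.31, 3.45, 1.73 and 2.33 on 44% fat, and in males 2.98, 3.17, 2.8 and 3.18, then 1.65, 1.62, 2.95 and 1.65. All 8 libraries on 44% fat lay below the 10% fat mean of their sex, although the diets overlapped in both sexes (female replicate 2 and male replicate 3 on 44% fat were the high ones). The geometric means were 2.13 against 3.27 (log2 difference −0.62, exact permutation p = 0.00327, adjusted p = 0.0152), and the difference was −0.86, −0.67 and −0.55 within the 3 runs. NZO/HlLtJ females had 1.56, 1.85, 1.77 and 1.57 on 10% fat and 0.806, 0.494, 0.576 and 0.414 on 44% fat, with no overlap, and NZO/HlLtJ males 0.846, 1.46, 0.724 and 0.581, then 1.44, 0.657, 0.552 and 1.29, with overlap. Over both sexes the difference did not pass (−0.75, exact permutation p = 0.0441, adjusted p = 0.128), and a difference between the sexes in it was not tested. CAST/EiJ females had ratios of 3.26, 2.4, 3.77 and 2.83, then 3.93, 3.55, 3.35 and 2.94, and males 2.25, 3.1 and 2.97, then 2.9, 3.21, 2.89 and 2.46 (0.12, exact permutation p = 0.298, adjusted p = 0.473). NZO/HlLtJ lay below C57BL/6J on 10% fat (−1.45, exact permutation p = 0.000408, adjusted p = 0.00286) and on 44% fat (−1.58, exact permutation p = 0.000408, adjusted p = 0.00286), and below CAST/EiJ on both diets (−1.27 and −2.14, exact permutation, adjusted p = 0.00457 and 0.00286). The CAST/EiJ ratio exceeded that of C57BL/6J on 44% fat (0.55, exact permutation p = 0.00612, adjusted p = 0.0245) but not detectably on 10% fat (−0.18, exact permutation p = 0.125, adjusted p = 0.238).

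Among the other ratios, Cidec per Adipoq was higher than in C57BL/6J in both other strains on both diets. The log2 differences were 0.79 and 0.84 for CAST/EiJ on 10% and 44% fat, and 0.85 and 1.15 for NZO/HlLtJ, with adjusted p of 0.00286 to 0.00457 (exact permutation). Retn per Adipoq was lower in NZO/HlLtJ than in C57BL/6J on 10% fat (−0.69, exact permutation p = 0.00204, adjusted p = 0.0101) and 44% fat (−1.02, exact permutation p = 0.000408, adjusted p = 0.00286), and than in CAST/EiJ on 44% fat (−0.65, exact permutation p = 0.000408, adjusted p = 0.00286). Pparg per Adipoq fell on 44% fat in CAST/EiJ, from 0.143 to 0.089 (−0.68, exact permutation p = 0.00163, adjusted p = 0.00857). In that group Pparg itself read 7.31, 9.36 and 12.3 CPM on 10% fat (lowest, median and highest) and 4.46, 6.78 and 9.9 CPM on 44% fat. On 44% fat Pparg per Adipoq was also lower in CAST/EiJ than in C57BL/6J (−0.76, exact permutation p = 0.0049, adjusted p = 0.0206) and higher in NZO/HlLtJ than in CAST/EiJ (0.95, exact permutation p = 0.000408, adjusted p = 0.00286). Fabp4 per Adipoq was lower in C57BL/6J females than males (−0.41, exact permutation p = 0.0122, adjusted p = 0.0429), a call lost in 11 of 16 tests that left out 1 library, and lower in NZO/HlLtJ than in CAST/EiJ on 10% fat (−0.27, exact permutation p = 0.00653, adjusted p = 0.0249). Within the first identifier run, the only one with both of these strains on that diet, the latter difference was −0.042, and its call was lost in 3 of 15 tests that left out 1 library.

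Genes of triglyceride storage and release, many of which muscle fibres also express, were compared in the same way. Of 20 such genes, 14 were higher and 1 lower in CAST/EiJ against C57BL/6J on 10% fat and 13 higher and 1 lower on 44% fat, with median log2 fold changes of 0.42 and 0.42 against −0.013 and −0.024 over all genes, of which 24% and 24.6% were higher. Pnpla2, the lipase that starts triglyceride breakdown, was among the higher genes on 10% fat (378 against 201 CPM, log2 fold change 0.92 ± 0.105, adjusted p = 2.41e-09), as was its activator Abhd5 (41.3 against 30.5 CPM, log2 fold change 0.43 ± 0.0515, adjusted p = 5.23e-09). The glycerol channel gene Aqp7 was lower in CAST/EiJ (4.75 against 10.1 CPM, log2 fold change −1.08 ± 0.156, adjusted p = 2.9e-07). NZO/HlLtJ had 8 higher and 0 lower against C57BL/6J on 10% fat and 4 higher and 0 lower on 44% fat (medians 0.34 and 0.20), where 13.4% and 16.3% of all genes were higher. The count on 44% fat was 2 when only these strains were fitted. The monoglyceride lipase Mgll was among the higher genes (86.1 against 49.6 CPM, log2 fold change 0.80 ± 0.128, adjusted p = 6.31e-06 on 10% fat). Between the diets, edgeR called 0 of 20 in each strain, with 1, 3 and 1 in C57BL/6J, CAST/EiJ and NZO/HlLtJ at an unadjusted p under 0.05, 0, 1 and 0 called by DESeq2 and 0, 0 and 0 by limma-voom.

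Of 14 other genes enriched in adipocytes, CAST/EiJ had 4 higher and 1 lower against C57BL/6J on 10% fat and 4 higher and 1 lower on 44% fat, beside 49.7% and 51.5% of all genes called. With only these strains fitted, 7 were higher on 10% fat. Tusc5, a partner of glucose transporter vesicles in adipocytes, was 19.2 against 6.77 CPM, log2 fold change 1.53 ± 0.404, adjusted p = 0.00166 on 10% fat. NZO/HlLtJ had 2 higher and 1 lower against C57BL/6J on 10% fat and 1 higher and 1 lower on 44% fat, beside 25.8% and 35.2% of all genes called, and on 10% fat 1 was higher with only these strains fitted and 0 lower with limma-voom. Adrb3, the adrenergic receptor that triggers lipolysis in fat, was lower in NZO/HlLtJ than in C57BL/6J on 10% fat (1.89 against 4.92 CPM, log2 fold change −1.62 ± 0.507, adjusted p = 0.015) and on 44% fat (0.403 against 3.15 CPM, log2 fold change −3.05 ± 0.579, adjusted p = 7.14e-05), while the natriuretic peptide clearance receptor Npr3 was higher (45.2 against 14.7 CPM, log2 fold change 1.54 ± 0.344, adjusted p = 0.000663 on 10% fat). With limma-voom, Adrb3 on 10% fat did not pass (−1.28, adjusted p = 0.096). Between the diets, edgeR called 0 of 14 in each strain, with 1, 1 and 1 at an unadjusted p under 0.05, 0, 0 and 1 called by DESeq2 and 0, 0 and 0 by limma-voom in the same order, and the smallest adjusted p was that of Adrb3 in NZO/HlLtJ (0.403 against 1.89 CPM, log2 fold change −2.29 ± 0.582, adjusted p = 0.0631). Of 12 regulators of adipocyte differentiation, 2 were higher and 3 lower in CAST/EiJ against C57BL/6J on 10% fat (24% and 25.6% of all genes), with a median of 0.029. The retinoid receptor gene Rxrg, also active in muscle, was 21.2 against 44.5 CPM, log2 fold change −1.07 ± 0.0841, adjusted p = 1.45e-13.

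Genes for the receptors of these adipokines were compared as well. Of 5 (Adipor1 and Adipor2 for adiponectin, Cdh13, whose product T-cadherin binds adiponectin, Lepr for leptin and Cap1, reported to bind resistin), 2 were higher and 0 lower in CAST/EiJ against C57BL/6J on 10% fat, where 49.7% of all genes were called and 24% were higher. These were Cdh13 (130.5 against 82.6 CPM, log2 fold change 0.66 ± 0.0713, adjusted p = 5.38e-10) and Adipor2 (175 against 150.2 CPM, log2 fold change 0.22 ± 0.0556, adjusted p = 0.00105). In NZO/HlLtJ against C57BL/6J on 10% fat, edgeR called Adipor1 lower (12.4% of genes lower), but not with RLE scaling (−0.13, adjusted p = 0.0533). The call was also lost with no filter or only these strains fitted, while DESeq2 called 2 receptors lower. On 44% fat (18.9% of genes lower) the number varied by setting, and was 1 with RLE scaling, no filter, limma-voom or no run term. Lepr was higher in females than males of C57BL/6J (6.54 against 3.999 CPM, log2 fold change 0.70 ± 0.119, adjusted p = 3.5e-05) and CAST/EiJ (7.47 against 4.9 CPM, log2 fold change 0.61 ± 0.119, adjusted p = 0.0011), and in NZO/HlLtJ it gave 4.48 against 3.93 CPM, log2 fold change 0.19 ± 0.116, adjusted p = 0.318. Between the diets edgeR called 0 of 5 in each strain (0, 0 and 0 at an unadjusted p under 0.05, 0, 0 and 0 by DESeq2 and 0, 0 and 0 by limma-voom).

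The 10 genes whose log2 CPM followed the mean of the 8 markers most closely over the 47 libraries were Slc1a5, Aoc3, Cebpa, Tshr, Lipe, Rbm47, Abhd15, Mrap, Slc36a2 and Prkar2b. Pearson's r was 0.972 for the amino acid carrier Slc1a5, 0.966 for the amine oxidase Aoc3, 0.962 for the transcription factor Cebpa and 0.927 for Lipe, which encodes hormone-sensitive lipase. It was 0.919 for the tenth, Prkar2b, a regulatory subunit of protein kinase A. With group means removed, r ranged from 0.885 (Abhd15) to 0.984 (Aoc3) over the 10. The libraries share these 12 groups and each library its scaling, so r is a description here. Within the markers, Plin1 followed the mean of the other 7 most closely with group means removed (r = 0.988) and Lep least (0.769).

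Markers of other cells of fat and muscle also differed between libraries. The summed CPM of 5 brown adipocyte markers (Ucp1, Cidea, Elovl3, Cox8b and Dio2) ranged from 87.5 to 131 in C57BL/6J, 112 to 229 in CAST/EiJ and 93.3 to 216 in NZO/HlLtJ. Cox8b, which muscle also makes, gave 83.1 to 154 CPM of this sum. Ucp1, the defining gene of brown adipocytes, ranged from 0 to 0.571 CPM in C57BL/6J, from 1.35 to 66.7 in CAST/EiJ and from 0 to 79.0 in NZO/HlLtJ. At least 1 of the 5 was at 0 in 11 of 16 C57BL/6J, 0 of 15 CAST/EiJ and 9 of 16 NZO/HlLtJ libraries. The median of Ucp1 was 0.0133, 29.8 and 0.251 CPM in the same order, highest in CAST/EiJ, where 7 of the 8 white markers had their highest group. In CAST/EiJ against C57BL/6J, 5 of 5 brown markers were higher on 10% fat and 4 on 44% fat, beside 24% and 24.6% of all genes. Between the diets, edgeR called 0, 0 and 1 of 5 brown markers in C57BL/6J, CAST/EiJ and NZO/HlLtJ, beside 0%, 0.134% and 0.408% of all genes. At an unadjusted p under 0.05 they numbered 0, 1 and 3, and DESeq2 called 0, 0 and 2 and limma-voom 0, 1 and 0. The part of brown adipocytes in the strain differences of the white markers was not tested.

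The summed CPM of 12 lymphocyte markers, such as Cd79a and Cd3e, ranged from 0.849 to 238 in C57BL/6J, 0.313 to 93.5 in CAST/EiJ and 0.37 to 248 in NZO/HlLtJ. At least 1 of the 12 was at 0 in 6, 3 and 15 libraries of these strains. In NZO/HlLtJ a single library held most of the Cd79a, with a highest of 34.5, a mean of 2.21 and a median of 0.042 CPM. Cd3e there gave 11.1, 0.722 and 0.00564 CPM in the same order. With group means removed, r with the mean of the 8 markers was 0.501 for Cd79a and 0.488 for Cd3e, and 0.575 for Ucp1. On 44% fat, 12 of 12 lymphocyte markers were lower in NZO/HlLtJ than in C57BL/6J and 12 than in CAST/EiJ, beside the lower Cfd and Retn, and 18.9% and 28.2% of all genes were lower. The part of lymphocyte-bearing tissue in the levels of the white markers was not tested. Of 8 markers of adipocyte progenitors and fibroblasts, 1 was higher and 5 were lower in CAST/EiJ against C57BL/6J on 10% fat and 0 higher and 5 lower in NZO/HlLtJ. Of 8 macrophage markers, 0 were higher and 3 lower in CAST/EiJ and 0 higher and 2 lower in NZO/HlLtJ. Over all genes, 25.6% were lower in CAST/EiJ and 12.4% in NZO/HlLtJ in these comparisons, and the part of these cells was not tested.

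Markers of slow muscle fibres were lowest in C57BL/6J by their median. The summed CPM of 5 (Myh7, Tnnt1, Tnni1, Tnnc1 and Myl3) ranged from 413 to 2259.7 in C57BL/6J, 839.5 to 2037 in CAST/EiJ and 892 to 2960.5 in NZO/HlLtJ, with medians of 757, 1552 and 1799. In CAST/EiJ against C57BL/6J, 4 of 5 were higher on 10% fat and 4 on 44% fat (median log2 fold changes 1.195 and 0.81), beside 24% and 24.6% of all genes. In NZO/HlLtJ against C57BL/6J, 5 and 5 of 5 were higher (medians 1.41 and 1.06), beside 13.4% and 16.3%. Their part in the strain differences of the white markers was not tested.

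**Figure D4:**
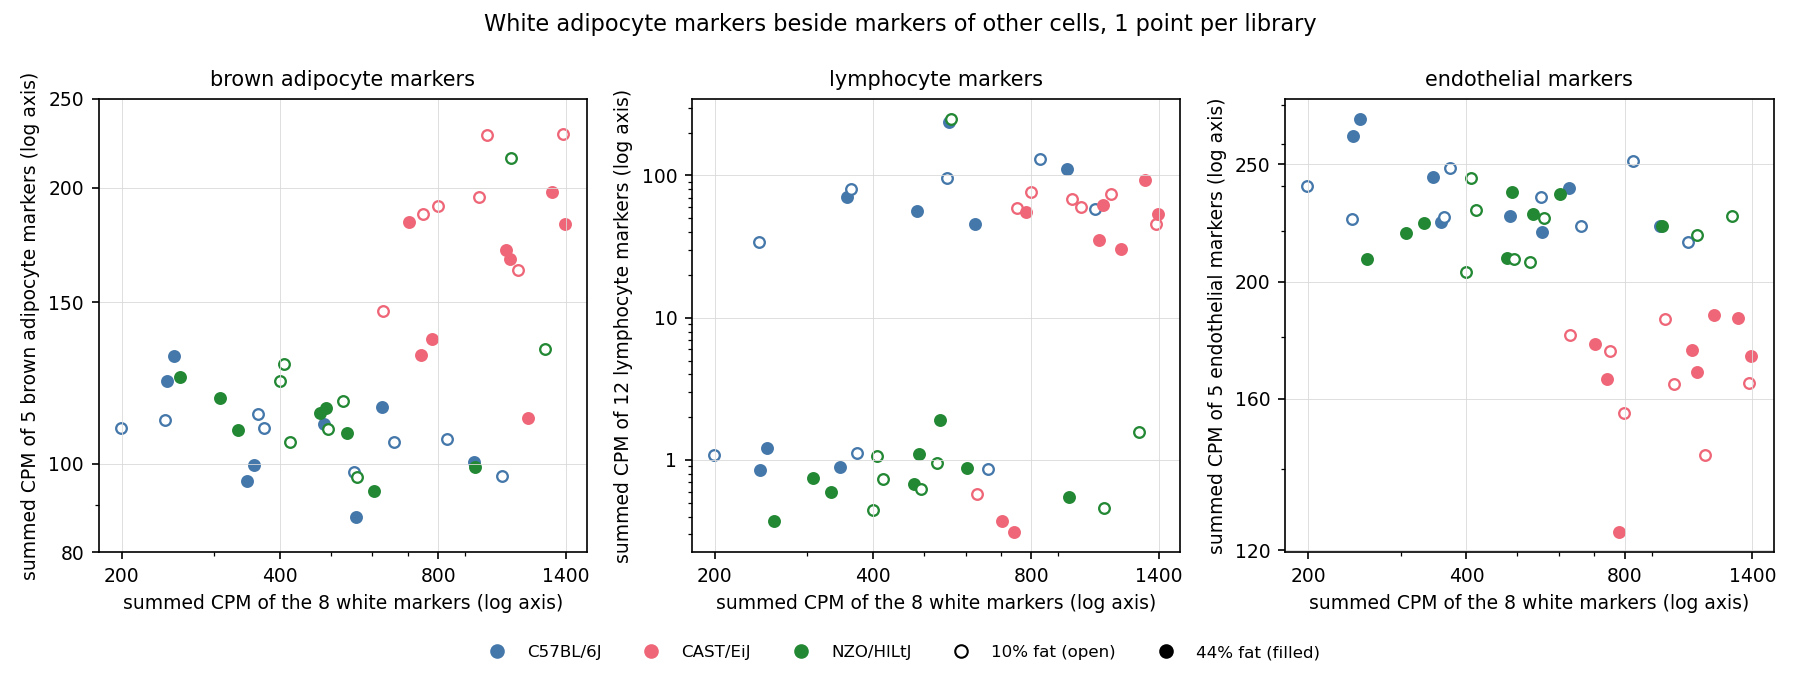
Each point is 1 library, with the summed CPM of the 8 white adipocyte markers on the horizontal log axis and the summed CPM of 5 brown adipocyte, 12 lymphocyte or 5 endothelial markers on the vertical log axis, coloured by strain, open for 10% fat and filled for 44% fat. CAST/EiJ libraries lie to the right, higher for brown and lower for endothelial markers. Lymphocyte sums spread widely within each strain, and Cd79a in NZO/HlLtJ came mostly from a single library.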

How the data were processed

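Gastrocnemius RNA was sequenced as paired reads in 47 mouse libraries. Expected counts (reads estimated per gene, not normalized) for 20796 genes come from the authors' deposited table. The authors' deposited log2 values, a variance-stabilized matrix of the same libraries, served only as a check on the mapping of columns (r with log2 CPM of at least 0.9945 for each marker). The submitters' processing notes name GRCm38 and DESeq2; the sources used here do not give the aligner, the quantifier or any strain-specific genome. Every deposited gene is above 0 in at least 24 libraries. Counts were rounded to whole numbers (81.19% already were, within 1e-06).

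Groups were taken from the labels. Genes were filtered with filterByExpr (17159 kept), scaled by TMM and fitted with edgeR 4.0.16 (R 4.3.3) by quasi-likelihood over all 47 libraries, with a mean for each of 12 groups and a term for the identifier run (33 residual degrees of freedom). Benjamini-Hochberg adjustment ran over all tested genes, with a threshold of 0.05. The SE is the log2 fold change divided by the square root of F. CPM values are TMM-scaled with no pseudocount; log2 CPM has a prior count of 2. Strain comparisons average both sexes, diet comparisons both sexes and sex comparisons both diets. Total counts of 26041719 to 84794107 leave the spread between libraries, not counting, as the main limit. The fit was tested on simulated data first.

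The 8 markers and the gene lists were chosen with earlier results of these data known. Values are named for the 8 markers, for up to 3 list genes with the smallest p in a comparison, and for the 10 genes most like the mean of the markers. Ratios to Adipoq were compared by exact permutation (Python 3.11.15), without regard to the identifier run, and added after the data were seen. Transcript lengths are from GENCODE M21 and promoter windows from the RefSeq table on GRCm38.p6, where 7 of the 8 markers had an entry. Alternatives were DESeq2 1.42.0, limma-voom (limma 3.58.1), RLE scaling, no filter, no run term, only the strains compared, each identifier run alone, and leaving out each library.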

Additional observations from a re-analysis of the deposited data

Results flagged for a closer look

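Single libraries that stand apart from the rest of their group were looked for among the 8 marker levels (88 groups of 4 tested) and the 7 ratios to Adipoq (77 groups). By Dixon's criterion, 8 level groups and 5 ratio groups held such a library. Chance marks about 1 in 20 groups when values are normally distributed. The CPM and ratios were not log-transformed and the markers share libraries, so that rate need not hold here. Lep in C57BL/6J males on 44% fat, replicate 1 was 40.6 CPM against 8.98 to 13.4 in the rest of the group. Lep in CAST/EiJ males on 44% fat, replicate 4 was 28.2 CPM against 5.65 to 9.47 in the rest of the group. Plin1 in NZO/HlLtJ males on 10% fat, replicate 1 was 125 CPM against 32.2 to 36.0 in the rest of the group. Fabp4 in NZO/HlLtJ males on 10% fat, replicate 1 was 614 CPM against 217 to 226 in the rest of the group. Pparg in C57BL/6J females on 44% fat, replicate 2 was 13.5 CPM against 5.09 to 5.96 in the rest of the group. Pparg in C57BL/6J males on 10% fat, replicate 3 was 7.28 CPM against 3.84 to 4.04 in the rest of the group. Pparg in NZO/HlLtJ females on 10% fat, replicate 1 was 18.1 CPM against 6.02 to 6.4 in the rest of the group. Cidec in NZO/HlLtJ females on 44% fat, replicate 4 was 35.1 CPM against 58.9 to 63.4 in the rest of the group. For NZO/HlLtJ males on 10% fat, both Plin1 and Fabp4 stood apart in replicate 1, the library with the highest Adipoq and Lep of that group.

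Per Adipoq count, the same was seen for 5 groups. The ratio of Retn in C57BL/6J females on 10% fat, replicate 2 was 0.315 against 0.26 to 0.268 in the rest of the group. The ratio of Cfd in C57BL/6J males on 44% fat, replicate 3 was 2.95 against 1.62 to 1.65 in the rest of the group. The ratio of Fabp4 in C57BL/6J females on 10% fat, replicate 1 was 5.77 against 4.75 to 4.88 in the rest of the group. The ratio of Pparg in C57BL/6J females on 10% fat, replicate 1 was 0.145 against 0.108 to 0.114 in the rest of the group. The ratio of Cidec in CAST/EiJ males on 44% fat, replicate 4 was 0.877 against 1.07 to 1.11 in the rest of the group. The values are given without a test of a cause.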

How the results depend on the processing

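The number of markers called moved by more than 1.5 times in 3 comparisons under another tool or design. It was 1 for diet in NZO/HlLtJ with DESeq2 (Cfd), 5 for CAST/EiJ against C57BL/6J on 10% fat with limma-voom, and, for sex in C57BL/6J, 2 with DESeq2, 3 with limma-voom, 2 with no run term and 0 when only this strain was fitted. RLE scaling and no filter on low counts moved no number of markers called by that much. Leaving out 1 library gave 0 to 0, 0 to 0 and 0 to 1 markers called for diet in C57BL/6J, CAST/EiJ and NZO/HlLtJ, and 0 to 3, 0 to 0 and 0 to 0 for sex. For CAST/EiJ against C57BL/6J it gave 2 to 6 on 10% fat and 3 to 5 on 44% fat, for NZO/HlLtJ against C57BL/6J 2 to 3 and 2 to 4, for NZO/HlLtJ against CAST/EiJ 2 to 4 and 5 to 7, and for the interactions 0 to 0 and 0 to 0. Libraries whose removal moved a number by more than 1.5 times were NZO/HlLtJ female replicate 2 on 10% fat and male replicate 3 on 44% fat (diet in NZO/HlLtJ, to 1 each), C57BL/6J male replicate 3 on 10% fat (CAST/EiJ against C57BL/6J on 10% fat, to 6), C57BL/6J male replicate 2 on 44% fat (the same strains on 44% fat, to 3) and NZO/HlLtJ male replicate 3 on 44% fat (against C57BL/6J, to 2). For sex in C57BL/6J they were female replicate 1 on 10% fat, male replicate 1 on 44% fat and male replicate 3 on 10% fat (to 3 each), female replicate 4 on 44% fat (to 2), and the 3 named beside that result (to 0).

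Differences near 0 changed sign: Adipoq for diet in C57BL/6J was 0.047 with limma-voom and 0.025 with no run term, and Lep for diet in CAST/EiJ was 0.035 with limma-voom and 0.017 with only this strain. With 1 library left out, these ran from −0.19 to 0.26 and −0.57 to 0.27. Others that crossed 0 were Lep for diet in NZO/HlLtJ (−0.40 to 0.51), Adipoq in NZO/HlLtJ against C57BL/6J on 44% fat (−0.55 to 0.11), Lep for sex in C57BL/6J (−0.022 to 0.79), Adipoq and Lep for sex in NZO/HlLtJ (−0.012 to 0.54 and −0.71 to 0.13) and the ratio of Lep to Adipoq for diet in CAST/EiJ (−0.503 to 0.0017). None of these was called, and the cause was not tested.

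Calls lost with 1 library left out were Fabp4 in NZO/HlLtJ against CAST/EiJ on 10% fat (16 of 31 fits), Plin1 in CAST/EiJ against C57BL/6J on 44% fat (11 of 31), Pparg in those strains on 10% fat (8 of 31), Cidec in NZO/HlLtJ against C57BL/6J (2 of 32 on 10% fat and 6 of 32 on 44% fat), Cfd for sex in C57BL/6J (3 of 16), and Lep and Retn in NZO/HlLtJ against C57BL/6J and Adipoq in CAST/EiJ against C57BL/6J on 44% fat (1 fit each). Among the ratios to Adipoq they were Lep for diet in C57BL/6J (3 of 16 tests), Fabp4 for sex in C57BL/6J (11 of 16) and Fabp4 in NZO/HlLtJ against CAST/EiJ on 10% fat (3 of 15). Dividing by Plin1 in place of Adipoq, an alternative chosen after seeing the data, ended the calls of Fabp4 for sex in C57BL/6J (adjusted p = 0.218, exact permutation) and Cidec in NZO/HlLtJ against C57BL/6J on 10% fat (adjusted p = 0.062). No paired analysis was possible because replicate numbers follow the order of deposit and link no libraries across groups. Each marker had counts above 0 in every library, and the part of counting noise in the spread of the markers was not estimated.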
